A study of Mus musculus with 12 samples.

Results

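Regions of open chromatin that were at least 3-fold more accessible in thymic iNKT17 cells than in both other iNKT subsets of C57BL/6 (B6) mice were collected, and their genes, positions, sequence content and behaviour in Hivep3-/- mice were described. A region was taken when the lower of the 2 B6 iNKT17 libraries exceeded the highest of the 4 B6 iNKT1 and iNKT2 libraries by at least 1.585 on the log2 scale (3-fold) and the B6 iNKT17 mean was at least 2.32 (5 insertions per kb, taken here as the level of an accessible region). Of 63309 regions of 500 bp, 3332 (5.26%) met the rule. The mirrored rule gave 2233 regions for iNKT1 and 1443 for iNKT2. The 12 ATAC-seq libraries, in which a transposase inserts adapters into open DNA, covered iNKT1, iNKT2 and iNKT17 cells of B6 and Hivep3-/- (Hivep3KO) mice, with 2 libraries in each of 6 groups. All mice were untreated, 8 to 9 weeks old and on the C57BL/6 background. iNKT1 cells were CD122+ ICOS-, iNKT2 cells were CD122- ICOS+ Izumo1r+ CD138-, and iNKT17 cells were CD122- ICOS+ Izumo1r- CD138+. The 3 subsets of a genotype were sorted from pooled thymi, transposed together and sorted again by ICOS and CD138. In the labels each mouse number of a genotype is shared by 1 library of each of the 3 subsets. The main fit does not use this pairing. The p-values measure the spread between these samples, which may be partly technical.

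Invariant natural killer T cells are innate-like T cells that recognise lipids presented by CD1d and acquire effector programmes in the thymus. The iNKT17 subset produces IL-17 on stimulation. Nuclear receptors such as RORα bind a single copy of the hexamer AGGTCA, or close forms of it, preceded by A and T-rich bases, called a ROR element. HIVEP3 is a large zinc finger protein that acts as a transcription factor and as an adapter. Enhancers and promoters become accessible to the transposase when factors displace nucleosomes, so accessibility marks candidate control regions and is not a measure of transcription.

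Of the motifs searched, the ROR element was the one whose share differed most between these regions and the rest of the table. It was searched on both strands as ANTAGGTCA, TNTAGGTCA, ANTGGGTCA or TNTGGGTCA. A match describes the letters of a region and does not show that a factor was bound. The following stretches (mm10) come from the most accessible region with an element at each of 7 genes of the type 17 programme, written 5′ to 3′ along the strand of the element, with each element of the stretch in capitals. The Il23r stretch lies in an intron of the IL-23 receptor gene at chr6:67475823-67475883 (- strand). The Il1r1 stretch lies in an exon of the IL-1 receptor gene at chr1:40243728-40243788 (+ strand). The Il17a stretch is intergenic, 5.10 kb upstream of the start of Il17a, at chr1:20725932-20725992 (- strand), and the Il17f stretch is intergenic, 19.6 kb downstream of the start of Il17f, at chr1:20759804-20759864 (+ strand). The Il22 stretch lies in an intron at chr10:118206690-118206750 (+ strand). The Ccr6 stretch lies at the promoter of the chemokine receptor gene at chr17:8235973-8236033 (- strand). The Blk stretch lies in an intron of the kinase gene at chr14:63407823-63407883 (- strand).
Il23r: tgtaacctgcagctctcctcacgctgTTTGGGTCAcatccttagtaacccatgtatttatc
Il1r1: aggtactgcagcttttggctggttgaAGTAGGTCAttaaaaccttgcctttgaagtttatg
Il17a: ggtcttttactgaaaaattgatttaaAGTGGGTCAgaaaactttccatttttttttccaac
Il17f: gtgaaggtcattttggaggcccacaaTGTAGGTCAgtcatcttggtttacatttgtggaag
Il22: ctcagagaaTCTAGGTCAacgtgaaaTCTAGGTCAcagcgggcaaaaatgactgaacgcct
Ccr6: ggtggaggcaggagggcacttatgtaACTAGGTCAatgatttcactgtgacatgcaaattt
Blk: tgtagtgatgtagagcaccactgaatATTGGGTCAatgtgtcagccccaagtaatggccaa

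The region with the most elements, 7 in 500 bp, was intergenic at chr3:54567180-54567679, 125 kb upstream of Supt20. It is shown because its elements recur in a tandem repeat. The stretch chr3:54567410-54567679 is given along the + strand, and its elements, in capitals, read on the opposite strand.
Repeat near Supt20: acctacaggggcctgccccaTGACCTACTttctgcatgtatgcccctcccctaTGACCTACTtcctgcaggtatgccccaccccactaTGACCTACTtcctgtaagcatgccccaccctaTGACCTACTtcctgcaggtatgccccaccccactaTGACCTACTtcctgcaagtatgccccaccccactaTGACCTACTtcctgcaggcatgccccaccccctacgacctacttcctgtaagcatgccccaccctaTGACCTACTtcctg
The level of this repeat was 5.69 and 5.89 in B6 iNKT17 and 5.49 and 5.74 in Hivep3KO iNKT17 on the log2 scale, against 2.30 to 3.63 in the 4 other B6 libraries and 2.44 to 3.55 in the 4 other Hivep3KO libraries. The iNKT17 libraries of both genotypes were above all other libraries. Reads from repeated units can align to more than 1 place, and how far this touches the level was not tested.

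All values below are log2 insertions per kb after the quantile normalisation applied by the authors, unless stated otherwise. In B6 iNKT17 the median level of the 3332 regions was 4.13 and 4.19 in the 2 libraries. In B6 iNKT1 it was 0.15 and -0.14, and in B6 iNKT2 it was -0.26 and -0.16. The regions were selected on these 6 B6 libraries, so the B6 levels are a description and carry no test. The label "open only in iNKT17" held for 2691 of the regions (80.8%), in which all 4 other B6 libraries lay below the accessible level. In the other 641 at least 1 library of another subset reached it, so these were more open in iNKT17 rather than open only there. At 45 regions all 4 other B6 libraries stood at the lowest value of their library, for which no fold is given. The gap between the lower iNKT17 library and the highest other library ran from 1.59 to 9.34 in B6, with a median of 3.11. Just inside the threshold were regions in introns of Lexm (gap 1.585) and Akirin2 (gap 1.589). Just outside it were an intergenic region near Anp32a and an intronic region of Cd83, both with a gap of 1.584.

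**Figure D1:**
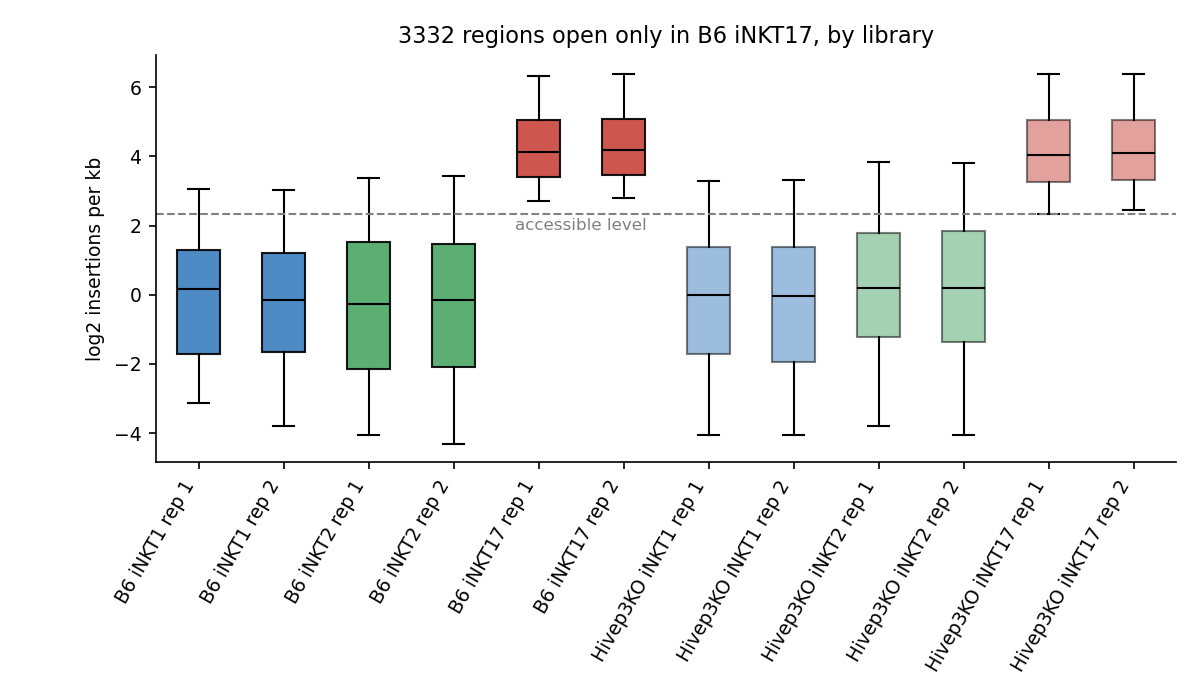
Levels of the 3332 regions in each library (log2 insertions per kb; line, median; box, quartiles; whiskers, 5th and 95th percentiles; dashed line, accessible level of 2.32). The medians lay between 4.05 and 4.19 in the 4 iNKT17 libraries of both genotypes and between -0.26 and 0.20 in the 8 others.

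The Hivep3KO libraries took no part in choosing the regions, and in them the iNKT17 cells were again the most open subset at nearly all regions. The median level in Hivep3KO iNKT17 was 4.05 and 4.10. It was -0.01 and -0.04 in Hivep3KO iNKT1 and 0.20 in both Hivep3KO iNKT2 libraries. With limma fitted over all 63309 regions (adjusted p below 0.1 and at least 3-fold), 3197 of the 3332 regions (95.9%) were higher in Hivep3KO iNKT17 than in Hivep3KO iNKT1, against 9.86% of all regions. Of the same regions 3091 (92.8%) were higher than in Hivep3KO iNKT2, against 8.26% of all regions, and 2988 (89.7%) were higher than in both, against 5.67%. No region was called lower in either comparison; at an unadjusted p under 0.05 the count was also 0, and limma was the tool used for both. The median difference was 4.14 to iNKT1 (-0.02 over all regions) and 3.71 to iNKT2 (-0.04 over all regions). Among regions with neither compared library at its lowest value, these medians were 3.80 (2937 regions) and 3.30 (2788 regions). Adding 5 insertions per kb to every value before the logarithm left 1913, 1721 and 1564 regions called, and restricting the test to regions whose average across the 12 libraries reached 5 insertions per kb left 2073, 1977 and 1909.

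The gap of the lower iNKT17 library over the highest other library was above 0 in Hivep3KO for 3311 of the 3332 regions (99.4%), compared with 18.5% of all regions. Its median was 2.81 for the chosen regions and -0.51 over all regions, and its quartiles for the chosen regions were 1.85 and 4.21. The full rule, applied to the Hivep3KO libraries alone, was met by 2647 of the regions (79.4%), against 4.65% of all regions, and by another 297 regions that had not met it in B6. The same count was 1739 of 2233 (77.9%) for the iNKT1 regions and 676 of 1443 (46.8%) for the iNKT2 regions, each by its own mirrored rule. These shares were not tested against each other. Of the 685 regions that missed the rule in Hivep3KO, 592 missed the 3-fold gap and 122 missed the level, and 488 still had a gap of at least 2-fold. Among the 592, the highest other library was an iNKT2 library for 403 and an iNKT1 library for 189. Because the regions were picked for a large gap in B6, a smaller gap in other libraries is not by itself a difference between genotypes.

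**Figure D2:**
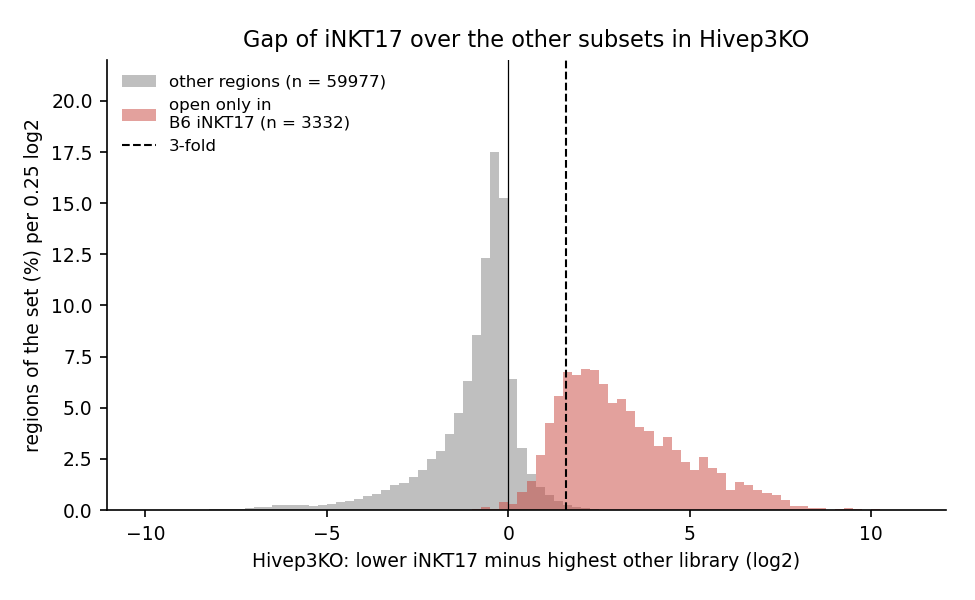
Gap in Hivep3KO, the lower iNKT17 library minus the highest iNKT1 or iNKT2 library (log2, horizontal axis), as the percentage of each set per bin of 0.25 log2. The 3332 regions had a median gap of 2.81 and 3311 lay above 0, whereas the median over all regions was -0.51.

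Between genotypes, the level in iNKT17 cells itself moved little. The regions held 4.74% and 4.87% of the summed linear signal of the B6 iNKT17 libraries and 4.69% and 4.70% of that of the Hivep3KO iNKT17 libraries. In such sorted bulk populations a lower share of cells with an open region and a lower accessibility per cell cannot be told apart. The median difference, Hivep3KO minus B6, was -0.07 (quartiles -0.34 and 0.15; -0.01 over all regions), and 3203 of the regions (96.1%) lay within 1 log2 unit in either direction. Since the B6 iNKT17 libraries chose the regions, calls between genotypes are given as a description only. In limma no region was called more accessible in Hivep3KO iNKT17 (0.373% of all regions were), 41 regions being higher at an unadjusted p under 0.05. One region was called less accessible (0.368% of all regions were), with 79 lower at an unadjusted p under 0.05. Among the 52511 regions with a B6 iNKT17 mean at or above 2.32, the shares called were 0.0229% more and 0.147% less accessible. The 1 region was intergenic, chr6:53801459-53801958, 19.1 kb downstream of the start of Tril, which encodes a modulator of Toll-like receptor signalling. Its level was 3.22 and 3.47 in B6 iNKT17 and 0.38 and 1.47 in Hivep3KO iNKT17. The libraries did not overlap, with a difference of -2.42 ± 0.72 (SE, n = 2 per group), and the call was lost when either B6 iNKT17 library was left out.

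In the other subsets of Hivep3KO mice these regions were low but not uniformly so. They held 0.384% and 0.369% of the signal in the B6 iNKT1 libraries and 0.417% and 0.419% in Hivep3KO iNKT1. In iNKT2 the shares were 0.435% and 0.441% in B6 and 0.574% and 0.573% in Hivep3KO, a ratio of 1.31 between the genotype means. The Hivep3KO iNKT2 libraries thus lay above the B6 iNKT2 libraries in summed signal, while iNKT17 itself held about 4.7%. The mean level reached 2.32 at 447 regions in B6 iNKT2 and at 594 in Hivep3KO iNKT2, and at 350 and 433 regions in iNKT1. The number called more accessible in Hivep3KO was 255 in iNKT2 (7.65%; 0.945% of all regions) and 169 in iNKT1 (5.07%; 1.19% of all regions). The number called less accessible was 72 in iNKT2 (1.51% of all regions) and 128 in iNKT1 (0.791% of all regions). Only 41 and 36 of those called more accessible reached the accessible level in Hivep3KO. The B6 libraries of both subsets were selected for low values here, so nothing is read from these counts. Beside this, the summed linear level at the promoters of type 17 cytokine genes (4 of 6 with a promoter region) was 15.1 insertions per kb in B6 iNKT2, 28.4 in Hivep3KO iNKT2 and 168 and 177 in iNKT17 of B6 and Hivep3KO. In iNKT2 this sum was almost wholly Csf2, whose promoter was open in every group (log2 mean of 3.85 in B6 and 4.78 in Hivep3KO iNKT2), while the Il17a, Il17f and Il22 promoters lay between -2.84 and -1.36 in iNKT2 of both genotypes. At the receptor promoters (9 of 9) it was 257 and 273 in iNKT2, and at those of other type 17 genes (6 of 8) 64.9 and 61.6. For a listed gene with several promoter regions, the highest in each group was used, here and below. The part of iNKT17 cells in the iNKT2 gate was not tested.

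Within Hivep3KO, the 2 low subsets differed at some of the regions. limma called 630 regions (18.9%) higher in Hivep3KO iNKT2 than in Hivep3KO iNKT1, against 9.03% of all regions, and 296 regions (8.88%) lower, against 8.77% of all regions. Of these, 207 and 70 had a mean at or above the accessible level in the higher subset. The median difference, iNKT2 minus iNKT1, was 0.32 (0.02 over all regions). Most calls rested on low values: 278 of the 926 were left when only regions accessible in either group were tested and 43 when 5 insertions per kb were added.

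Of the 5 regions with the smallest gap in Hivep3KO, those at Mcc and Ociad2 lay at promoters. Those near Ifng and 245 kb downstream of the start of Trib2 were intergenic. The last lay in an intron, 31.9 kb upstream of the start of Cfap161. The B6 iNKT17 means of the 5 regions were low for the set. At the Ifng region, 13.2 kb from the start of the gene for interferon γ, the B6 iNKT17 level was 3.19 and 2.65 and the Hivep3KO iNKT17 level was 1.74 and 1.23. Hivep3KO iNKT1 stood at 1.88 and 1.57 there and overlapped the iNKT17 libraries, whereas B6 iNKT1 stood at -3.12 and -1.01. At the Mcc promoter, Hivep3KO iNKT2 (2.79 and 1.90) overlapped Hivep3KO iNKT17 (1.88 and 2.50).

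The regions were numerous at genes of the type 17 programme. Of 45 genes in 5 lists, 31 were the nearest coding gene of a region or held one in their body, compared with 1941 of 14801 protein-coding genes near or around any region of the table (13.1%). Among transcription factors 8 of 11 had at least 1 region, with 32 regions in all, of which 30 were called higher than both other subsets in Hivep3KO. Of the whole set 2988 of 3332 regions (89.7%) were so called, and of all regions 5.67%. The counts of called regions by gene group, here and below, stand beside that share of the set and set no group apart. Irf4, Stat3 and Rxra had none. Rora, the gene for RORα, had 6 of its 40 table regions in the set. The most accessible one, in an intron 16.2 kb downstream of the start, had 5.30 and 5.49 in B6 iNKT17 and 5.55 and 5.64 in Hivep3KO iNKT17. Hivep3KO iNKT1 stood at 3.40 and 3.26 and Hivep3KO iNKT2 at 3.38 and 3.81, so this region was open in all subsets and more so in iNKT17. The groups did not overlap, and the Hivep3KO iNKT17 level was higher than iNKT1 by 2.27 ± 0.19 (SE, n = 2; adjusted p = 3.96e-07) and than iNKT2 by 2.00 ± 0.19 (adjusted p = 2.07e-06, limma).

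Other factors showed single regions within loci that were mostly shared between subsets. Runx1 had 5 of 47 regions and Maf, which encodes the factor c-MAF, had 10 of 31. At Rora and Maf the highest of the promoter regions (3 and 2) was open in every group. Its means ran from 6.77 to 7.07 at Rora and from 6.07 to 6.60 at Maf. The top Maf region was intergenic, 192 kb downstream of the start, with 5.79 and 5.74 in B6 iNKT17, 5.75 and 5.57 in Hivep3KO iNKT17, and 2.61 to 3.92 in the other libraries of both genotypes. Nr1d1 encodes REV-ERBα, a nuclear receptor that binds related elements. Its top region, 4.22 kb upstream, had 6.07 and 6.26 in B6 iNKT17 and 6.48 and 6.80 in Hivep3KO iNKT17, with all other libraries below 0. Batf (2 regions), Ahr (3), Sox13 (1) and Hif1a (1) completed the group. The top Ahr region was among the weakest in Hivep3KO, higher than iNKT1 by 1.81 ± 0.34 (adjusted p = 0.000583, limma).

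Among cytokine genes, Il17a (6 of 8 regions), Il17f (2 of 3), Il22 (4 of 6), Csf2 (2) and Ccl20 (1) had regions of the set, and Il21 had none. Of the 15 regions 14 were called higher than both other subsets in Hivep3KO. The promoters of the IL-17 genes were closed outside iNKT17. At the Il17a promoter the level was 5.80 and 5.91 in B6 iNKT17 and 5.83 and 5.59 in Hivep3KO iNKT17. The other libraries ran from -3.79 to -0.78 in B6 and from -4.05 to -0.88 in Hivep3KO, with 4 of them at their lowest value. At the Il17f promoter iNKT17 stood at 6.24 and 6.22 in B6 and at 6.40 and 6.34 in Hivep3KO, and the other 8 libraries lay between -3.12 and -0.88. No library of another subset came near the accessible level at either promoter. The intronic Il22 region printed above, which holds 2 ROR elements, had 6.23 and 6.25 in B6 iNKT17 and 6.14 and 6.21 in Hivep3KO iNKT17. Il22 has a near-identical copy, Iltifb, close by, so its reads are uncertain. The Ccl20 region stood at 4.65 and 4.55 in B6 iNKT17 and at 3.62 and 3.82 in Hivep3KO iNKT17, while all 8 other libraries lay between -4.05 and -3.12. The difference between genotypes there, -0.88 ± 0.79 (SE), was close to its error. Csf2, the gene for GM-CSF, had an open promoter in every group (means of 3.85 to 4.90), and its top region of the set lay 47.6 kb downstream.

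Of the receptor genes 7 of 9 had regions, 46 in all, with 44 called in both Hivep3KO comparisons. Il18r1 and Il6st had none. Il1r1 led the whole set with 23 of its 26 table regions, all 23 called in both comparisons and all 23 meeting the rule in Hivep3KO. The exonic region printed above had 6.76 and 7.07 in B6 iNKT17 and 7.22 and 7.13 in Hivep3KO iNKT17, against -3.12 to 0.51 in the other B6 libraries and -0.61 to 1.60 in the other Hivep3KO libraries. Il23r had 11 of 12 regions, all 11 called. Its top intronic region had 6.20 and 6.12 in B6 iNKT17 and 6.15 and 5.80 in Hivep3KO iNKT17, with the other 8 libraries between -2.69 and 1.10. The whole locus, including its 2 promoter regions, was thus open in iNKT17 alone in these libraries. Il17re, which encodes a subunit of the IL-17C receptor, had all 3 of its regions in the set. At Il7r, Ltb4r1 (the leukotriene B4 receptor), Tnfrsf25 and Il2ra the regions lay beside promoters that were open in every group or in most. The top Il2ra region was open everywhere, with 3.62 to 4.47 in the other B6 libraries and 6.19 and 6.28 in B6 iNKT17, and in Hivep3KO it exceeded iNKT2 by 1.51 ± 0.12, under 3-fold.

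Of 11 homing and surface genes, Ccr6 (7 of 10 regions), Sdc1 (9 of 16), Emb (9 of 21), Nrp1 (3) and Cd44 (3) had regions, 32 in all with 28 called in both comparisons. Itgb7, Itgae, Aqp3, Icos, Cxcr6 and Ccr10 had none. Ccr6, whose product guides cells to CCL20, had its top region 25.7 kb upstream of the start. Its levels were 5.71 and 6.09 in B6 iNKT17 and 6.18 and 6.37 in Hivep3KO iNKT17, with every other library at or below 0.51. Sdc1 encodes CD138, which was used to sort the iNKT17 cells. Its top region, 73.1 kb downstream of the start, was open in all groups, with 4.23 to 4.62 in the 8 other libraries and 6.75 to 6.98 in the 4 iNKT17 libraries. In Hivep3KO it was higher in iNKT17 by 2.26 ± 0.14 against iNKT1 (adjusted p = 2.67e-08) and by 2.48 ± 0.14 against iNKT2 (adjusted p = 3.47e-08, limma). The Cd44 region had low values in the other B6 libraries (-0.55 to 1.07) and higher ones in Hivep3KO (1.34 to 3.28).

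Among other genes of the programme, Tmem176a, Tmem176b, Blk, Serpinb1a, Pxdc1 and Actn2 had 37 regions, all 37 called in both comparisons, and 5830411N06Rik and Cd163l1 had none. Blk, a Src-family kinase known from B cells and IL-17-producing γδ T cells, had 19 of 21 regions. Its most accessible region was open everywhere (4.01 to 5.30 in the 8 other libraries, 7.06 to 7.28 in iNKT17), but its promoter was not: the mean was 5.81 in B6 iNKT17 and 5.64 in Hivep3KO iNKT17 against -0.94 to 1.45 in the other groups. The intronic Actn2 region had the highest level of the named type 17 regions, with 7.41 and 7.30 in B6 iNKT17 and 7.66 and 7.67 in Hivep3KO iNKT17. No other library exceeded 2.03 there. Serpinb1a and Tmem176b had a single region each, at the promoter.

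The study's list of transcripts that mark its single-cell iNKT17 cluster, drawn from other cells, overlapped this programme: 52 of 91 genes (57.1%) had a region of the set, against 13.1% of protein-coding genes in the table. They had 257 regions, 247 of them called in both Hivep3KO comparisons, beside 89.7% of the whole set. Of 12 iNKT1 markers Ifng and Fasl had regions of the set, and of 10 iNKT2 markers Gata3 and Ccr7, with 4 regions for each list, shares near that of all protein-coding genes. Of the iNKT1 markers 5 of 12 had an accessible promoter in B6 iNKT17 and 12 of 12 in B6 iNKT1. Ifng (6.44 in B6 iNKT1, 0.54 in B6 iNKT17) was among those that were not accessible in B6 iNKT17. Il2rb (8.06 and 8.10), Gzmb (6.59 and 5.80), Fasl (6.39 and 5.92), Tbx21 (5.17 and 3.71) and Klrb1c (4.42 and 3.50) were open in both. Of the iNKT2 markers 8 of 10 were accessible in B6 iNKT17 and 10 of 10 in B6 iNKT2, and Il17rb was at 4.10 in B6 iNKT17 and 2.88 in B6 iNKT2.

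Markers of other cells that a CD138+ gate could hold were also examined. Of 8 B and plasma cell markers 3 had a promoter region in the table. These were Pax5, Xbp1 and Prdm1. Their summed linear level was 215 insertions per kb in B6 iNKT1, 191 in B6 iNKT2 and 215 in B6 iNKT17, and 220, 183 and 208 in the Hivep3KO groups. Most of this sum came from Xbp1 and Prdm1, which were at 6.26 to 6.72 (log2) in every group. Pax5 was at 2.92 in B6 iNKT1, 4.46 in B6 iNKT2 and 4.43 in B6 iNKT17. In Hivep3KO it was at 3.54, 4.56 and 4.61 in the same order. The part of B cells in the gate was not tested. Only Prdm1, also used by T cells, had 1 region of the set. Myeloid, double-positive thymocyte and thymic epithelial markers had none, but only 7 of 8, 1 of 6 and 4 of 6 of these genes were nearest to any region of the table, so most of the double-positive list could not be assessed. The γδ T17 list overlaps the type 17 programme, and its 2 genes with regions, Sox13 and Blk, belong to both. At the Vγ6 gene Tcrg-V6 the higher of 2 promoter regions was at 3.14 in B6 iNKT17, 3.59 in B6 iNKT1 and 2.74 in B6 iNKT2.

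Many regions lay next to one another. Of the 3332, 1620 (48.6%) directly followed or preceded another region of the set in the table, forming 555 runs, and 57 runs held 5 or more. Neighbours were counted by their order in the table, at any distance. The same count was not made for the iNKT1 or iNKT2 regions, so whether this is particular to iNKT17 was not tested. The longest, 20 consecutive regions over 171 kb (chr13:34690984-34861607), had Fam50b, Prpf4b and Pxdc1 as nearest genes. The body of Pxdc1 (chr13:34627834-34653486) lay outside it. A run of 19 regions covered 79.0 kb at Il1r1 (chr1:40189981-40268977), and another 19 covered 531 kb around Ppp1r14c, Iyd and Plekhg1 (chr10:3332830-3863880). All regions of these 3 runs were called higher than both other subsets in Hivep3KO. Runs of 15 at Blk, 13 at Myo16, 13 at Stab2, 11 at Il23r and 11 at Ccr6 followed. At the Ccr6 run the median level was 4.07 in B6 iNKT17 and 4.30 in Hivep3KO iNKT17. At a run of 9 near 1700113H08Rik it was 4.76 and 4.06.

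The set was nearest to 1850 of the 14461 genes assigned to any region (12.8%). Of these, 1179 had a single region and 96 had 5 or more. After Il1r1 and Blk, the genes with the most were Fam50b (17 of 17), Myo16 (13 of 14), Rhobtb1 (12 of 12), and with 11 each Igf1r, Il23r, Mycn, Plcb4, Pxdc1, Rasgef1b and Stab2. Mycn encodes N-MYC, Igf1r the IGF1 receptor and Stab2 a scavenger receptor. At most of these loci more table regions belonged to the set than not. The exceptions were Rasgef1b, where 11 of 28 did and 7 of the 11 were called in both Hivep3KO comparisons, and Plcb4 (11 of 23), while at Igf1r the share was 11 of 21. At Myo16, which encodes an unconventional myosin, the median level of the regions was 5.55 in B6 iNKT17 and 6.20 in Hivep3KO iNKT17, and its Hivep3KO iNKT1 median, 1.77, was above that of iNKT2, -1.81.

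The 10 regions with the largest gap in B6 were mostly intronic and most had libraries at the lowest value, so that only levels are given. Both BC053393 regions, the Ston2, 4930519G04Rik, Prelid2 and Stac regions and a region in the body of Nhsl1, nearest to Hebp2, were intronic. Those at Slc7a14, a transporter gene, and Hibch, a valine catabolism gene, lay at promoters, and that near Gpr65 was intergenic. The B6 iNKT17 levels of the 10 ran from 5.54 to 7.50 and their Hivep3KO iNKT17 levels from 5.45 to 7.59. In the Stac region (chr9:111621139-111621638) all 8 libraries of the other subsets stood at their lowest value, while the 4 iNKT17 libraries had 5.55 to 6.04. At 4930519G04Rik the level was 7.36 and 7.50 in B6 iNKT17 and 7.55 and 7.59 in Hivep3KO iNKT17. All 10 were called in both Hivep3KO comparisons.

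By position the regions lay away from promoters, as did the regions of the other subsets. Promoters (within 1000 bp of a transcription start) held 370 regions, 11.1%, compared with 35.5% of all regions, 10.7% for iNKT1 and 10.2% for iNKT2. Introns held 52.7% (36.5% of all regions), intergenic sequence 31.9% (23.7%) and exons 4.26% (4.32%). The median distance to the nearest coding start was 15.8 kb, against 5.35 kb for all regions, 14.3 kb for iNKT1 and 16.1 kb for iNKT2. At the start of a coding gene stood 261 regions, for 212 genes. Of these regions 234 were called in both Hivep3KO comparisons, near the share of the whole set (89.7%). The median GC content was 46.2% (50.0% for all regions), and outside promoters it was 46.0% and 47.8%.

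In sequence the set differed from the other subsets' regions. A ROR element was present in 1315 regions (39.5%), compared with 7.54% of all regions, 6.14% of the iNKT1 regions and 4.23% of the iNKT2 regions. Outside promoters the shares were 40.2%, 9.13%, 6.22% and 4.40%, and at promoters the share was 33.2% of the set against 4.64% of all regions there. The half-site AGGTCA alone, which lies inside the first pair of forms, was in 52.9% of the set and 27.7% of all regions. Of 2080 words of 6 letters counted outside promoters, AGGTCA (53.8% of the set, 31.0% of all) and GACCTA (34.1% and 14.4%) differed most, and both belong to the element. These are counts over regions of a chosen set, with no test.

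The other motifs searched, on both strands, differed less for this set. Outside promoters, the AP-1 motif TGACTCA was in 16.3% of the set and 13.9% of all regions, the Runt motif AACCACA in 24.5% and 21.7%, and the Maf half-site TGCTGAC in 11.3% and 9.80%. The T-box motif AGGTGTGA was in 2.16%, against 3.47% of all and 12.5% of the iNKT1 regions. The TCF motif (ATCAAAGG or TTCAAAGG) was in 6.01%, against 6.34% of all and 14.0% of the iNKT2 regions. The NFAT motif (ATTTTCCA or TTTTTCCA) was in 5.91% and 6.10%, the GATA motif AGATAAG in 7.93% and 7.49%, and the ETS motif (ACAGGAAGT or ACCGGAAGT) in 3.51% and 5.40%. Egr (GCGTGGGCG or GCGTGGGTG) was in 0.439% and 0.769%, E-box words (CAGGTG or CAGCTG) in 47.6% and 52.5%, and the NF-kB motif, close to the sites known for HIVEP proteins, in 6.79% and 8.02%.

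**Figure D3:**
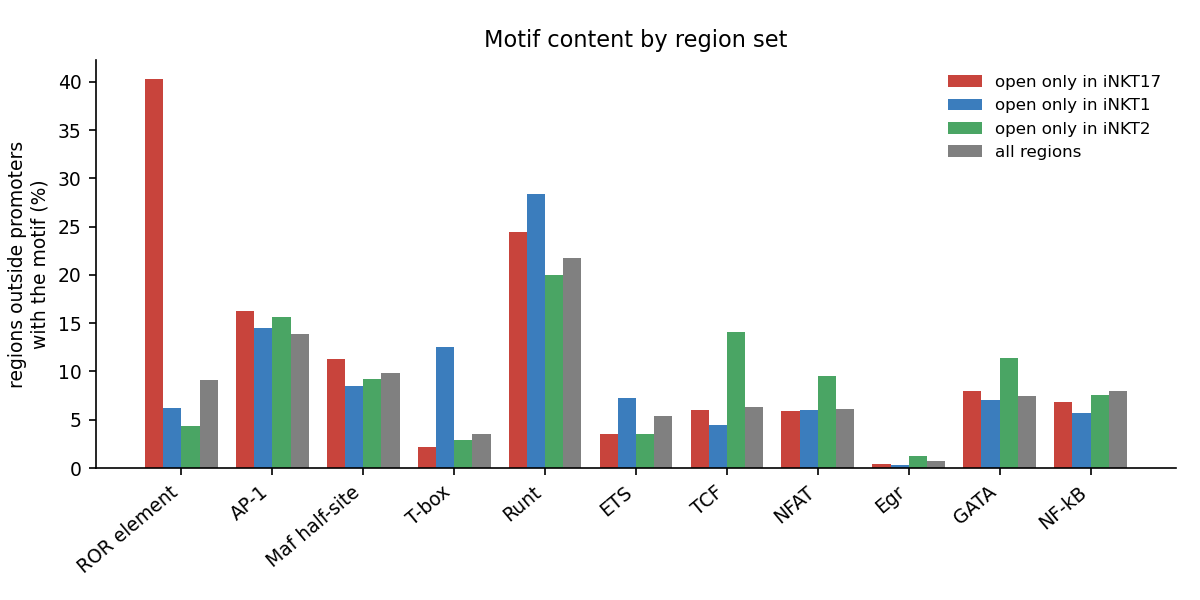
Percentage of regions outside promoters that hold each motif (bars from 0), for the regions open only in iNKT17, iNKT1 or iNKT2 and for all regions. The ROR element stands out for iNKT17 (40.2% against 9.13% of all regions), the T-box motif for iNKT1 (12.5%) and the TCF motif for iNKT2 (14.0%).

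The number of elements tracked membership. Of regions with no element 3.45% belonged to the set, of those with 1 element 25.6%, with 2 elements 51.2%, and with 3 or more 93.1% (27 of 29). The Hivep3KO libraries, which did not choose the set, gave the same order over all regions of the table: 3.77% of regions without an element, 27.0% with 1, 53.3% with 2 and 93.1% with 3 or more were called higher in Hivep3KO iNKT17 than in both other subsets. Over all regions the median Hivep3KO difference to iNKT1 was -0.04, 0.52, 2.60 and 6.20 in that order, the last from 29 regions. Within the set, 1239 of 1315 regions with an element (94.2%) and 1749 of 2017 without (86.7%) were called in both comparisons, and 85.6% and 75.5% met the rule in Hivep3KO. The median genotype difference in iNKT17 was -0.06 without an element, -0.09 with 1, -0.06 with 2 and -0.18 with 3 or more (27 regions).

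The elements sat near the middle of the regions. Of 1540 elements in the set, 885 (57.5%) lay within 50 bp of the centre, against 21.9% of 3603 elements in other regions, and the median distance from the centre was 42.5 bp and 123.5 bp. They also differed in their letters. The form ANTAGGTCA made up 31.9% of elements in the set and 18.1% elsewhere, and TNTGGGTCA 17.6% and 33.6%. The base just before the element, which the search did not use, was A for 71.2% of elements in the set and for 28.9% elsewhere. In the 7 stretches printed by gene it can be read as the last small letter before the capitals, and it is A before every element but those of Il23r and Blk.

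**Figure D4:**
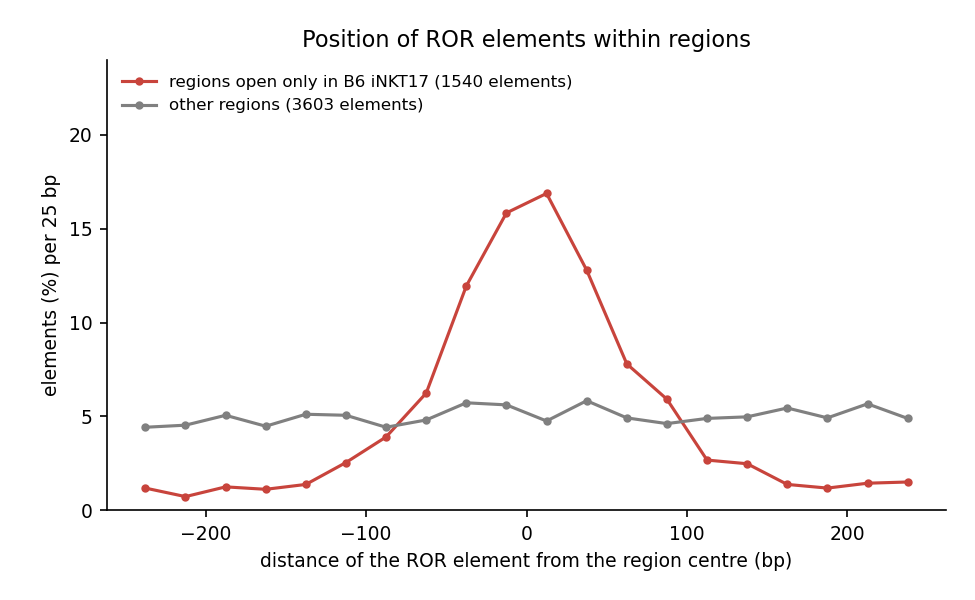
Distance of each ROR element from the centre of its 500 bp region (horizontal axis, bp) against the percentage of elements per 25 bp, for 1540 elements in the regions open only in iNKT17 and 3603 in all other regions. The first curve peaks at the centre at 16.9% per bin, whereas the second stays between 4.4% and 5.8%.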

How the data were processed

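ATAC-seq libraries of iNKT1, iNKT2 and iNKT17 cells from B6 and Hivep3-/- mice were analysed (12 libraries, 2 per group). The authors trimmed reads to 50 bp with Trimmomatic 0.39, per the study's methods and the submitters' notes, ran the ENCODE ATAC-seq pipeline on mm10, and counted insertions in fixed 500 bp regions. The deposited values are log2 insertions per kb, voom-transformed and quantile-normalised between libraries by the authors. Quantile normalisation gives all libraries nearly 1 distribution, so a global difference in accessibility would not be seen, and the table holds no counts, so the depth is unknown. No column was left unused (0). Library minima ran from -4.31 to -2.58, and differences that involve them depend on the constant added before the logarithm.

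The 6 group means were fitted to all 12 libraries with limma 3.58.1 (R 4.3.3; empirical Bayes with trend), and p-values were adjusted by Benjamini-Hochberg over 63309 regions with no filter on level. A region was called at an adjusted p below 0.1 and at least 3-fold. The fit was tested on simulated data. Contrasts within Hivep3KO are independent of the rule that chose the regions, while contrasts between genotypes share the B6 libraries with it. Libraries with the same mouse number within a genotype deviated together (correlations of 0.120 to 0.167 over 6 pairs of subsets), and a fit with this number as a block is an alternative. Genes and places were taken from GENCODE vM21 and sequences from GRCm38.p6 (samtools 1.23.1, pysam 0.24.0), both of the mm10 build.

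The named regions were the most accessible one at each type 17 gene, the 10 with the largest B6 gap, the genes with the most regions (12 through ties at rank 10), those called between genotypes in iNKT17, the 5 with the smallest Hivep3KO gap and those beside the threshold. Regions, lists and motifs were chosen with earlier results of these data known. One gene of the lists is not reported here.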

Additional observations from a re-analysis of the deposited data

How the results depend on the processing

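With the replicate block, the counts called higher in Hivep3KO iNKT17 than in iNKT1, iNKT2 and both were 3199, 3093 and 2992, those that differ between iNKT1 and iNKT2 934, and the genotype changes 342 in iNKT1 and 378 in iNKT2. The block moved no count by over 1.5 times except that of regions less accessible in Hivep3KO iNKT17, which was 4. This last count was 1 as reported, 0 when only regions accessible in either group were tested, 0 when the average across the libraries had to reach 5 insertions per kb, 9 with a pseudocount of 1, 8 at 2-fold, and 0 to 2 with 1 library left out. Regions more accessible numbered 2 at 2-fold, against 0.

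The calls that iNKT17 was higher in Hivep3KO fell most with a pseudocount of 5 (1913, 1721 and 1564) and with the same average (2073, 1977 and 1909). Regions that differ between Hivep3KO iNKT1 and iNKT2 (926) numbered 278 when accessible in either group, 264 with a pseudocount of 1 and 43 with 5. Genotype changes (297 in iNKT1, 327 in iNKT2) numbered 39 and 52 when accessible in either group, 33 and 37 with a pseudocount of 1, 1 and 1 with 5, and 489 and 604 at 2-fold. That average left 216 in iNKT2. With 1 library left out the iNKT1 count ran from 194 to 346, the lowest without Hivep3KO iNKT1 replicate 1. The filters test fewer regions and the pseudocounts shrink differences of low values by construction.

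The number of regions ran from 2774 to 4537 over 10 other settings and the count that met the rule in Hivep3KO from 2673 to 3029 over 7. Promoters held 244 regions within 500 bp and 707 within 2500 bp. A ROR element was in 1177 regions when only the central 250 bp were searched. In all, 80 of 111 recomputed counts stayed within 1.5 times.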

Other observations

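The share of table regions that belonged to the set differed between chromosomes. It ran from 3.15% on chromosome X (36 of 1144) to 7.18% on chromosome 13 (181 of 2520), where the run of 20 regions near Fam50b lies. Hivep3 itself, the gene inactivated in the Hivep3-/- mice, had 21 regions near or within it. None belonged to the set and none was called between genotypes in any subset, so accessibility there gives no check of the genotype labels.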
